A study of Mus musculus with 6 samples.

Results

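Mitotic spindle, kinetochore and kinesin genes were followed in sorted bone marrow haematopoietic stem cells (HSC) of wildtype and PU.1 knockdown mice. The genes were chosen by symbol: kinesins (Kif), centromere proteins (Cenp), aurora kinases (Aurka, Aurkb, Aurkc), polo-like kinases Plk1 to Plk4, NIMA-related kinases (Nek), Bub1, Bub1b and Bub3, together with Mki67, Top2a, Ccna2, Ccnb2, Cdk1, Birc5, Cdc20, Nusap1, Tpx2, Ube2c, Cks1b and Cks2. Of the 18186 genes with a probe set of their own, 88 met this rule, on 200 of the 44991 probe sets. Ccnb1 was also sought and was not analysed here. Where several probe sets measured a gene, the brightest on average stands for it. Of the 88 genes, 77 had a mean above the 40th percentile of all probe sets and 71 a mean above the median.

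RNA was profiled on 6 Affymetrix Mouse Genome 430 2.0 arrays. The wildtype group (WT) and the PU.1 knockdown group (PU.1 KD) had 3 arrays each, and each array held HSC RNA pooled from 3 animals. Both groups were sorted by flow cytometry, and their RNA passed through the same 2-round T7 amplification. How PU.1 was reduced, the strain, the age and the sort markers were not given in the sources used here. Spi1 is the gene of PU.1, a transcription factor of the ETS family that directs myeloid and B lymphoid development.

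Cells enter mitosis when Cdk1 binds A- and B-type cyclins. Aurora and polo-like kinases then build the spindle, kinesins move chromosomes along it, and kinetochores assembled on centromere proteins hold the chromosomes to microtubules. The checkpoint kinases Bub1 and BubR1 (Bub1b) delay anaphase until attachment is complete, after which Cdc20 and Ube2c direct the anaphase-promoting complex to destroy cyclin B. Most of these transcripts are made late in the cell cycle. HSC are known to be mostly quiescent, while their progenitors divide often. Other kinesins and several Nek kinases serve cargo transport or cilia in cells that do not divide. In pooled RNA, fewer cells of a type and less RNA per cell cannot be told apart.

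Values are log2 of the intensity plus 16 after quantile normalisation, and differences are knockdown minus wildtype on that scale, each with its standard error (SE) from limma. Where 3 values are listed for a group, they stand in the order of its pools 1, 2 and 3. Array medians lay between 81.4 and 91.5 intensity units, and arrays correlated at 0.955 to 0.979 across probe sets. Spi1 itself was 10.13, 9.42 and 10.07 among wildtype pools and 8.73, 8.55 and 7.06 among knockdown pools. Its groups did not overlap (difference -1.76, SE 0.43, limma adjusted p = 0.503, exact permutation p = 0.1, the smallest that 3 arrays against 3 allow). Wildtype pool 2 stood apart from wildtype pools 1 and 3 in many of the genes below. Among 10 stem and progenitor markers, including Kit and Cd34, its mean was 10.46 beside 9.56 and 9.75, and among 12 neutrophil granule genes, including Mpo and Elane, it was 10.10 beside 11.80 and 11.34. Kit, a receptor of stem and progenitor cells, had deposited intensities of 1172 to 2326 over the 6 arrays. Tek of the same list had 162.8 to 226.3 in wildtype and 59.6 to 98 in knockdown pools, without overlap (difference -0.99, SE 0.21). Of the 10 stem and progenitor markers, 3 were higher and 7 lower in the knockdown pools, beside 53.4% of all genes higher. The neutrophil genes Mpo and Elane had deposited intensities of 5854.8 to 8392.5 and 1866.1 to 7344.4, while Mmp8 of the same list had 17.4 to 197.2. Several of the counts, and the differences of many genes, are also given without wildtype pool 2.

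None of the 88 genes passed the test at an adjusted p under 0.05 (limma, Benjamini-Hochberg over all 44991 probe sets), and the smallest adjusted p among them was 0.426. Over all 18186 genes 0 were called as well (0%). At an unadjusted p under 0.05 there were 3 members, Plk3, Kif20a and Kif17, all higher in the knockdown pools, and 0 were lower. The same rule took 7.63% of all genes, 4.1% higher and 3.52% lower, so 3 of 88 members is no more than that background. The 2 groups did not overlap for 5 members, each higher in the knockdown pools: Plk3, Kif20a, Kif11, Kif20b and Kif3a. Among all genes, 8.42% were higher and 5.39% lower without overlap. With wildtype pool 2 left out, 7 members were higher and 7 lower without overlap. Fewer arrays overlap less often, and the share of all genes was not computed for that setting. The median difference of the 88 was 0.05, beside 0.02 for all genes, and 51 were above 0 and 37 below. Of all genes 53.4% were above 0, and 41.9% when the values were used as deposited, with medians of -0.02 for the members and -0.04 for all genes. On the log2 scale used here, the 95% interval of the difference lay wholly inside a 2-fold change in either direction for 85 of the 88. The 3 others were Kif15, Kif16b and Nek5, whose intervals reached -1.05, -1.02 and -1.14. The median of the larger interval bound, without sign, was 0.61 for the members and 0.57 for all genes. Folds of weak genes are understated on this scale: Kif14 differed by -0.38, and by -0.76 with a pseudocount of 1. Each interval is of 1 probe set, and other probe sets differed by up to -1.04 for Kif2a and 1.01 for Kif17.

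**Figure D1:**
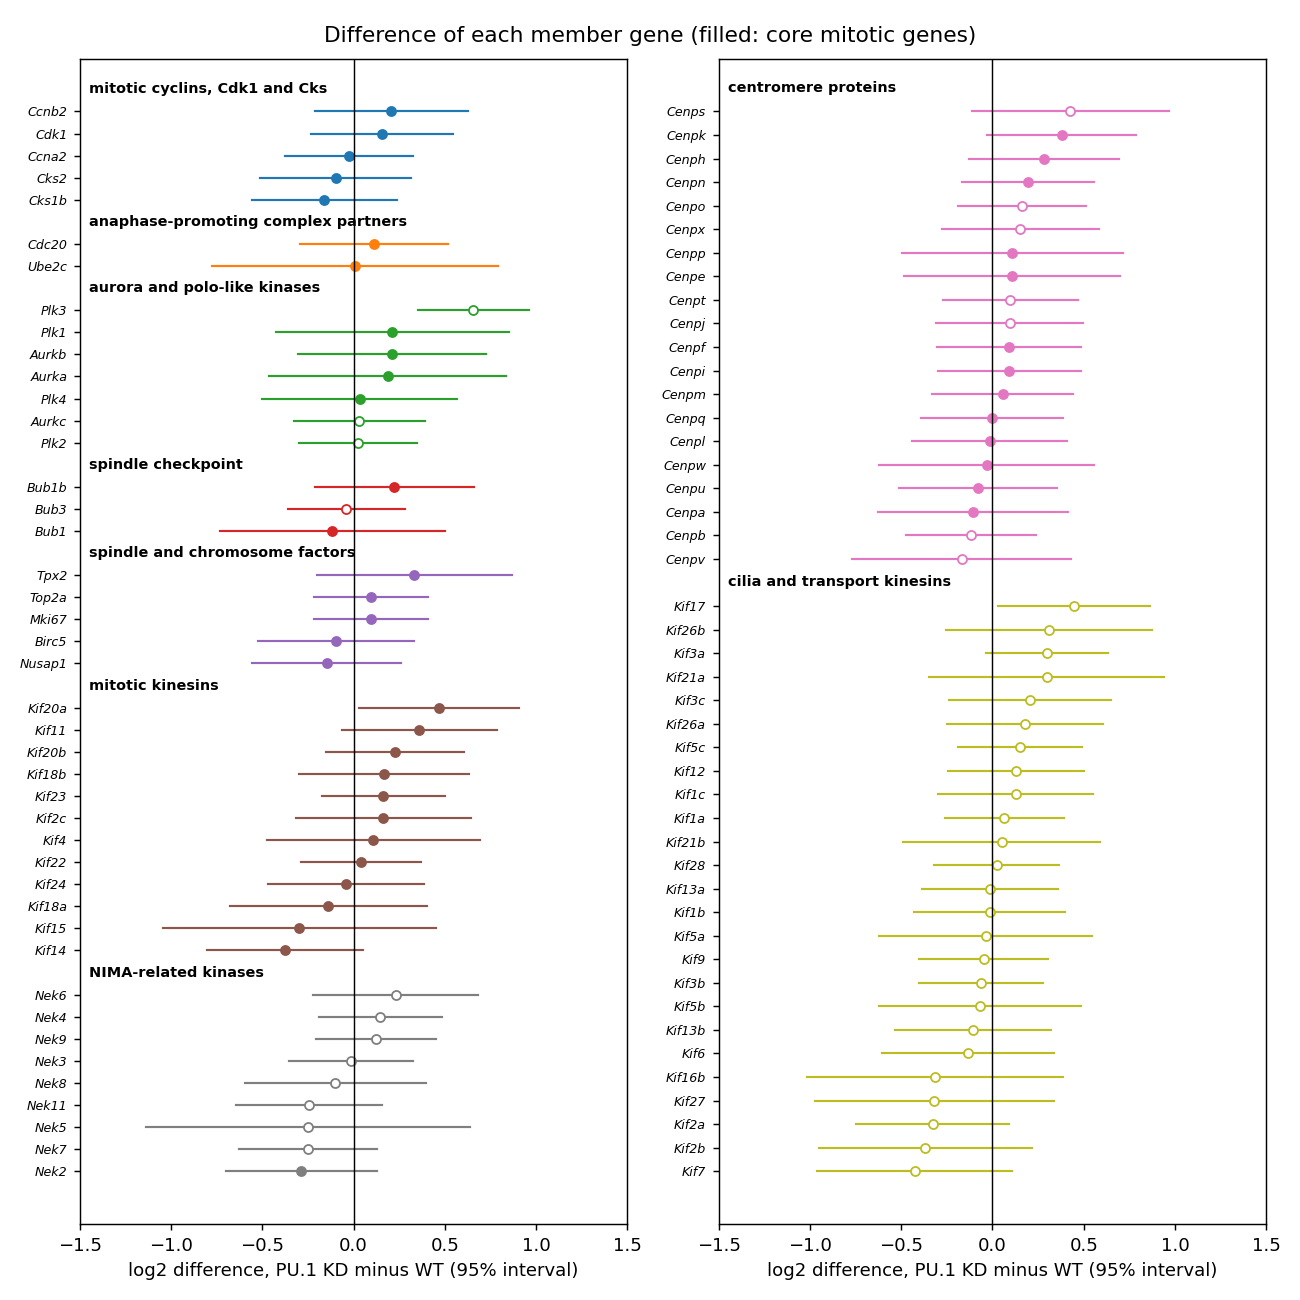
Difference of each of the 88 genes between PU.1 knockdown and wildtype pools (log2, points) with the 95% interval of the limma fit (lines), grouped by role; filled points mark the 44 core mitotic genes. Intervals of Plk3, Kif20a and Kif17 lie above 0, and the other 85 cross it.

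For 44 of the members, called the core mitotic genes here, the known function lies mainly in dividing cells. Their transcripts were plentiful in both groups: Mki67, a nuclear protein used to mark cycling cells, had deposited intensities of 3205.9 to 3769.9 in wildtype and 3734.2 to 3938.7 in knockdown pools. The mean of the 44 was 9.48, 9.08 and 9.58 among wildtype pools and 9.40, 9.50 and 9.43 among knockdown pools. The knockdown pools thus lay between wildtype pool 2, which was lowest, and wildtype pool 3, which was highest. Wildtype pool 2 was the lowest of the 6 arrays for 29 of the 44 genes (65.9%), beside 23% of all genes. It was highest for 0 of the 44, beside 18.2% of all genes. It lay below both other wildtype pools for 40 of the 44, beside 7374 of all 18186 genes.

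The direction of the core genes turned on that pool. With all arrays, 28 of the 44 were higher in the knockdown pools and their median difference was 0.09. Without wildtype pool 2, 14 of the 44 were higher and the median was -0.05, while the median of all genes was 0.01. At an unadjusted p under 0.05 that comparison took Plk3 as higher and Nek2 and Ube2c as lower among the 88 members, beside 9.85% of all genes. The SD between pools was larger in wildtype than in knockdown for 36 of the 44 core genes (81.8%, beside 51.5% of all genes), with medians of 0.27 and 0.18.

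**Figure D2:**
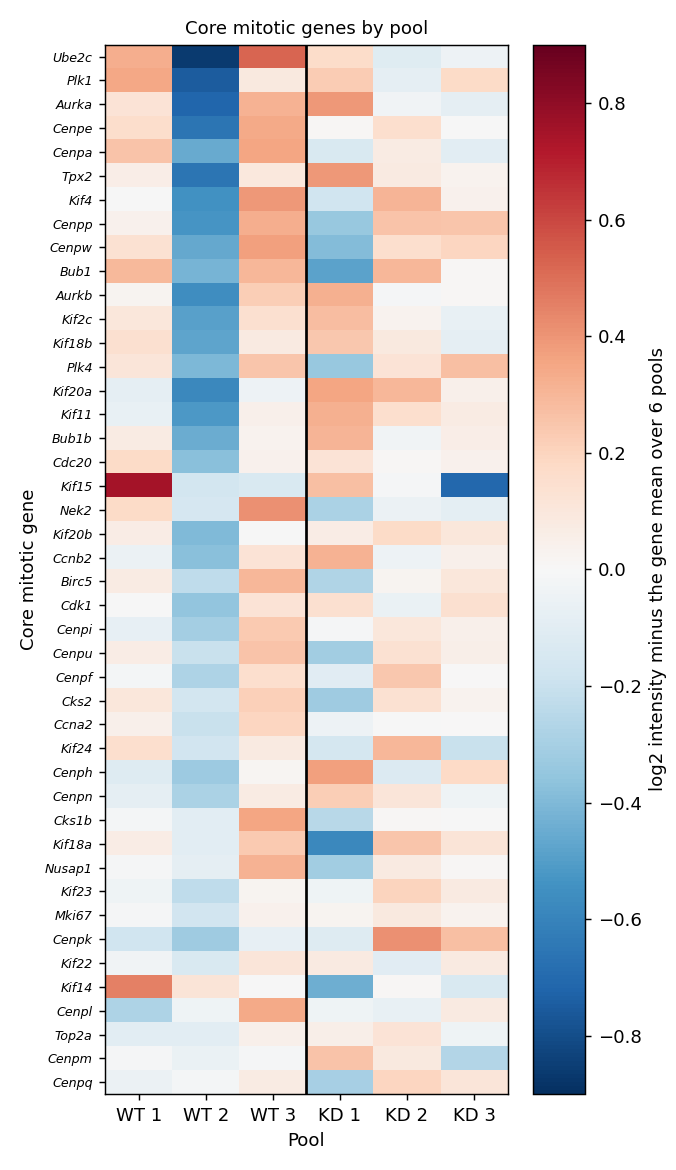
Log2 intensity of the 44 core mitotic genes in each pool, minus the gene's mean over the 6 pools (colour), ordered by how far wildtype pool 2 lay from the mean of wildtype pools 1 and 3. The column of wildtype pool 2 is blue for nearly every gene, with Ube2c, Plk1 and Aurka at the top, and knockdown pool 1 holds both red and blue genes.

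The other 44 members, mostly transport kinesins and Nek kinases, also hold Bub3 and centromere proteins such as Cenps. As a list they showed no such column. Their mean was 7.62, 7.67 and 7.62 among wildtype pools and between 7.65 and 7.67 in the knockdown pools. Wildtype pool 2 was lowest for 10 of these 44 (22.7%), near the 23% of all genes, and Cenps and Bub3 were among the 10. Relative to wildtype pools 1 and 3, it lay lower by a median of -0.41 over the core genes, while over the other 44 the median was 0.05. The markers of other cells moved with the core genes in this pool. All 12 neutrophil genes and all 6 erythroid genes measured were below both other wildtype pools there, as were all 8 megakaryocyte genes and 4 of 5 mast and eosinophil genes, while 1 of 7 B lymphoid and 3 of 7 T lymphoid genes were. By contrast, 9 of the 10 stem and progenitor genes were above them. Summed intensities of the neutrophil list ran from 24244 to 62192 in wildtype and from 47816 to 61932 in knockdown pools, those of the stem list from 9009 to 19160 and from 10411 to 12350, and those of the erythroid list from 1801 to 5237 and from 2682 to 9484. The megakaryocyte sums ran from 7997 to 16955 and from 2820 to 8476, and those of the mast and eosinophil list from 2031 to 10423 and from 1735 to 2728. No marker of these 5 lists was at the floor. Their part in the level of the mitotic genes was not tested.

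**Figure D3:**
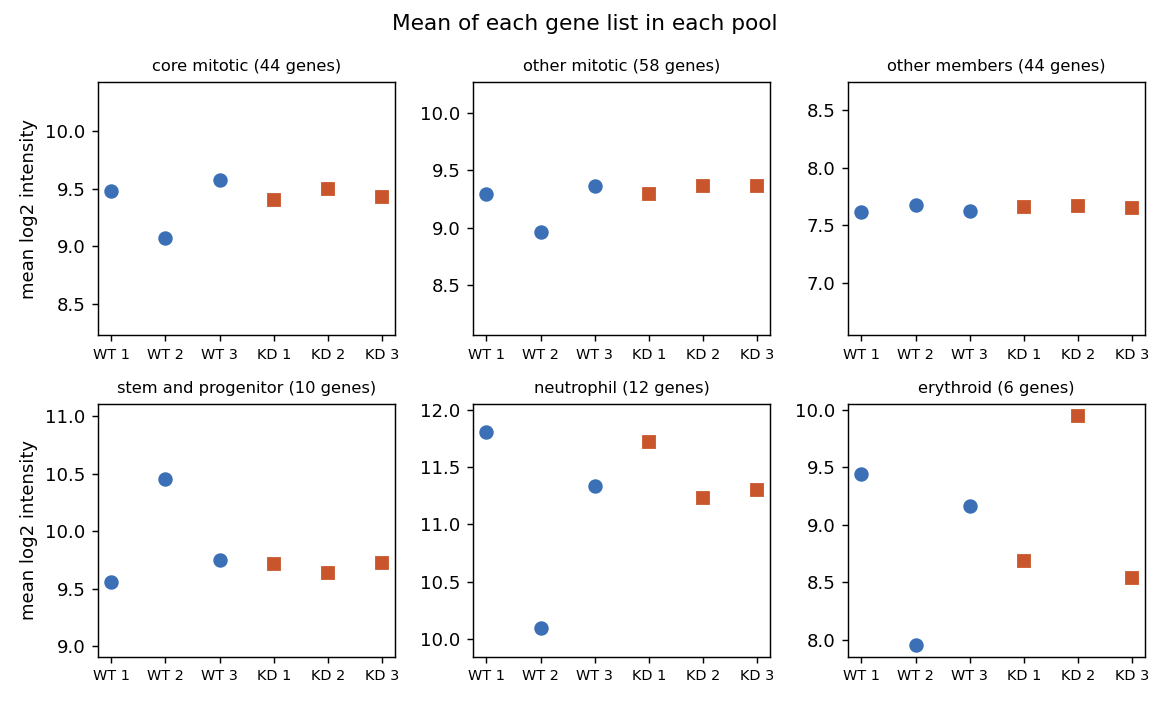
Mean log2 intensity of 6 gene lists in each pool (circles for wildtype, squares for knockdown; every panel spans the same log2 range). Wildtype pool 2 is lowest for core mitotic (9.08), other mitotic (8.97), neutrophil (10.10) and erythroid genes (7.95) and highest for stem and progenitor genes (10.46), while the other members differ little between pools.

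Promoters of the core genes shared letters that the choice of genes did not use. In the 250 bases before the start site (RefSeq, GRCm38.p6), the CCAAT box, which the factor NF-Y binds, was present on either strand in 32 of 42 promoters of 40 core genes (76.2%). It was found in 15 of 46 promoters of 39 other members (32.6%), in 34.8% of the promoters of genes on the array and in 33.8% of all promoters. At least 2 such boxes stood in 45.2% of the core promoters and in 11.4% of those of the array's genes. The cell cycle genes homology region, searched as TTTGAA on either strand, was in 35.7% of core promoters, 15.2% of those of other members, 11.9% of those of the array's genes and 5252 of all 32851 promoters. These are matches of letters and no measure of binding. Promoters of 79 of the 88 members were matched by gene identifier, and those of Aurkb, Ccna2, Kif13b, Kif20a, Kif21b, Kif28, Kif5a, Kif5b and Tpx2 were not analysed here. The last 130 bases before the start are shown for 6 core genes named below and for Plk3, the member with the smallest p, with both motifs in capitals (ATTGG and TTCAAA are their forms on the other strand), to show how the boxes are spaced.
Ccnb2, chr9:70421555-70421684, minus strand: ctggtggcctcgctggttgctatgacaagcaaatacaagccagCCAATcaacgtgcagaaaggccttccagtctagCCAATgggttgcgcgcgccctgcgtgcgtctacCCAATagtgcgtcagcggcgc
Cdk1, chr10:69352913-69353042, minus strand: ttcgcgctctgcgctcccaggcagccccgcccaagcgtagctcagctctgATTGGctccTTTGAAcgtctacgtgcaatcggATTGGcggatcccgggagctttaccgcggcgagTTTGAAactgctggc
Cdc20, chr4:118437344-118437473, minus strand: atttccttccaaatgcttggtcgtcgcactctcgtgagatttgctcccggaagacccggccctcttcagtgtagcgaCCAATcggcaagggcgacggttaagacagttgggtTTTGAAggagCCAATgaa
Ube2c, chr2:164769799-164769928, plus strand: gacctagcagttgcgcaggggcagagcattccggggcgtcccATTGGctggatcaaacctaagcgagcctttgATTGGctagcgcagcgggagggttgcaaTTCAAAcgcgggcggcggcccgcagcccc
Top2a, chr11:99024190-99024319, minus strand: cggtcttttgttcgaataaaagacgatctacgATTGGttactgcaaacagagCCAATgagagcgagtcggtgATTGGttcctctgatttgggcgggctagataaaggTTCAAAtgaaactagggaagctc
Kif11, chr19:37376252-37376381, plus strand: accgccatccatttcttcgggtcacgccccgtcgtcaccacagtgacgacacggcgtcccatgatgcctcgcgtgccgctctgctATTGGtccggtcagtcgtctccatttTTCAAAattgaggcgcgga
Plk3, chr4:117133964-117134093, minus strand: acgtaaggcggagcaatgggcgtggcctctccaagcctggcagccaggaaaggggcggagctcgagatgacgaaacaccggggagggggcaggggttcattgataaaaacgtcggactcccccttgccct
In Ccnb2 the CCAAT boxes begin 87, 54 and 21 bases before the start, a spacing of 33 bases each time. In Ube2c they are 31 bases apart, in Cdk1 32, in Top2a 20 between neighbours, and in Cdc20 45, while the Kif11 stretch holds 1 box. A TTTGAA stands 15 bases before the start of Cdk1 and 18 before that of Cdc20, and on the other strand 29, 23 and 19 bases before those of Ube2c, Top2a and Kif11. The Plk3 stretch holds neither motif. That of Kif3a, also outside the core and not shown, has a CCAAT box on the other strand 18 bases before the start. The stretches are examples, and the shares given above describe the lists. No 2 matches overlap in these stretches.

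The mitotic cyclins and their kinase differed little between the groups. Cdk1, the kinase that drives entry into mitosis, was 11.39, 11.04 and 11.52 among wildtype pools and 11.54, 11.34 and 11.54 among knockdown pools. The groups overlapped, with wildtype pool 2 lowest (difference 0.16, SE 0.17, limma adjusted p = 0.878; 0.02 without that pool). Its partner Ccnb2 (cyclin B2) was 10.76, 10.43 and 10.94 against 11.12, 10.77 and 10.86, so the groups overlapped again (difference 0.21, SE 0.18, limma adjusted p = 0.846; 0.07 without wildtype pool 2). Ccna2 (cyclin A2) differed by -0.03 (SE 0.15). The Cks proteins are small subunits of cyclin-dependent kinases: Cks1b differed by -0.16 (SE 0.17) and Cks2 by -0.10 (SE 0.18), and knockdown pool 1 was the lowest array for both. Their other probe sets had differences of 0.17 and 0.19, so the direction of the Cks genes depends on the probe set.

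The partners of the anaphase-promoting complex showed how low wildtype pool 2 could lie. Ube2c, the ubiquitin-conjugating enzyme of the complex, was 10.59, 9.40 and 10.78 among wildtype pools and 10.42, 10.15 and 10.21 among knockdown pools. The group means were equal to 2 decimals, at 10.26 ± 0.75 and 10.26 ± 0.14 (SD, n = 3 pools each), and every knockdown pool lay inside the wildtype range (difference 0.0056, SE 0.34). Without wildtype pool 2 the difference was -0.42, and the values as deposited gave -0.04. Cdc20, the activator that brings substrates to the complex, was 11.28, 10.73 and 11.15 against 11.23, 11.12 and 11.15 (difference 0.11, SE 0.17; -0.05 without wildtype pool 2).

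Among the aurora and polo-like kinases, Plk3 differed from its relatives in its pattern. It encodes a polo-like kinase known for stress responses rather than for the spindle, and was 6.15, 6.12 and 6.09 among wildtype pools and 6.72, 6.74 and 6.87 among knockdown pools. All 3 knockdown pools were above all 3 wildtype pools, the pools of each group lay close together, and the difference of 0.66 (SE 0.13, 95% interval 0.35 to 0.96) is a 1.58-fold ratio on this scale. The limma p of 0.00109 did not pass (adjusted p = 0.426; exact permutation p = 0.1). The signal was weak, with deposited intensities of 54.0 to 56.4 and 82.7 to 102.2, below the array medians in each wildtype pool, and 1 probe set measures the gene.

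The mitotic kinases of the same families overlapped between groups. Plk1, the polo-like kinase of spindle assembly, was 10.27, 9.18 and 10.01 among wildtype pools and 10.15, 9.84 and 10.10 among knockdown pools (difference 0.21, SE 0.28). Aurka, the centrosomal aurora kinase, was 9.79, 8.95 and 9.98 against 10.05, 9.63 and 9.58 (difference 0.19, SE 0.28). For both, wildtype pool 2 was far below the other 5 arrays, and without it the differences turned to -0.11 and -0.13. Aurkb, the kinase of the chromosomal passenger complex, differed by 0.21 (SE 0.22) and by -0.02 without that pool. Plk4, which starts centriole duplication, differed by 0.03 (SE 0.23), and Plk2 and the germ cell kinase Aurkc by 0.03 each. All 7 differences in this role were above 0 as normalised here, 4 with the values as deposited (Plk2, Plk4 and Aurkc were then lower) and 2 without wildtype pool 2, and 0 passed the adjusted test.

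**Figure D4:**
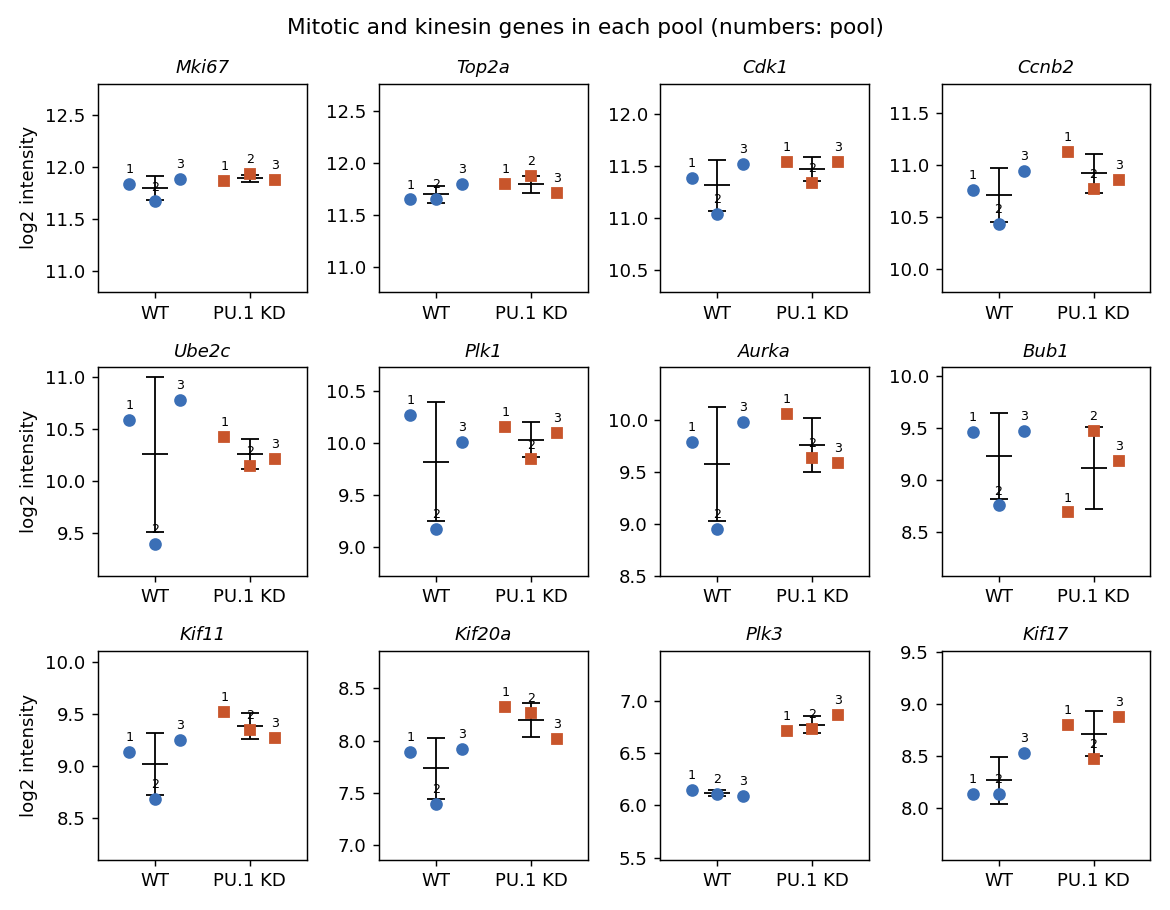
Log2 intensity of 12 genes in the 3 wildtype (circles) and 3 PU.1 knockdown pools (squares), with the pool number beside each point, and mean and SD as black bars; every panel spans 2 log2 units. Wildtype pool 2 is the low point of Ube2c (9.40), Plk1 (9.18) and Aurka (8.95), whereas the 3 wildtype pools of Plk3 lie between 6.09 and 6.15, below its knockdown pools.

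The 3 spindle checkpoint genes took both signs. Bub1b was 10.84, 10.32 and 10.80 among wildtype pools and 11.07, 10.73 and 10.82 among knockdown pools (difference 0.22, SE 0.19; 0.06 without wildtype pool 2), and its 3 probe sets were all higher in the knockdown pools. Bub1 was 9.46, 8.76 and 9.47 against 8.69, 9.47 and 9.19 (difference -0.12, SE 0.27; -0.35 without wildtype pool 2 and -0.41 as the mean of its probe sets). Low arrays of Bub1 were thus wildtype pool 2 and knockdown pool 1, and without knockdown pool 1 it differed by 0.10. Bub3, which targets both kinases to kinetochores, differed by -0.04 (SE 0.14), with its 5 probe sets between -0.40 and 0.53, and by 0.05 when arrays were centred on their medians.

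Of the spindle and chromosome factors, Mki67 was 11.84, 11.67 and 11.88 among wildtype pools and 11.87, 11.93 and 11.88 among knockdown pools. Top2a, the topoisomerase that untangles sister chromosomes, was 11.65, 11.66 and 11.80 against 11.80, 11.88 and 11.71. Each differed by 0.10 or less (0.09, SE 0.13, for Mki67, and 0.03 without wildtype pool 2; 0.10, SE 0.13, for Top2a, and 0.07), and their 95% intervals ran from -0.22 to 0.41. Tpx2, which activates Aurka on the spindle, was 9.75, 9.02 and 9.78 against 10.07, 9.76 and 9.71 (difference 0.33, SE 0.23; 0.09 without wildtype pool 2 and 0.10 as the mean of its probe sets). Birc5 (survivin), of the chromosomal passenger complex, differed by -0.10 (SE 0.19) and the microtubule-binding protein gene Nusap1 by -0.15 (SE 0.18), and knockdown pool 1 was lowest for both. Without wildtype pool 2 they differed by -0.24 and -0.23, whereas Birc5 differed by 0.02 without knockdown pool 1.

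Mitotic kinesins held 3 of the 5 members whose groups did not overlap. Kif20a, a kinesin of the central spindle, was 7.89, 7.39 and 7.92 among wildtype pools and 8.32, 8.26 and 8.01 among knockdown pools. Knockdown pool 3 was above wildtype pool 3 by a small margin, and the difference was 0.47 (SE 0.19, limma p = 0.0385, adjusted p = 0.681, exact permutation p = 0.1). Kif11, the motor that pushes spindle poles apart, was 9.13, 8.68 and 9.25 against 9.52, 9.35 and 9.27 (difference 0.36, SE 0.18, limma adjusted p = 0.745), and its 3 probe sets all lay above 0, from 0.24 to 0.47. Kif20b, a kinesin of late mitosis, was 8.42, 7.96 and 8.35 against 8.42, 8.52 and 8.45, so knockdown pool 1 lay barely above wildtype pool 1 (difference 0.23, SE 0.16). Its mean over 4 probe sets gave -0.05. Without wildtype pool 2 the differences of Kif20a, Kif11 and Kif20b were 0.30, 0.19 and 0.08.

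Of the 12 mitotic kinesins, 8 were higher and 4 lower in the knockdown pools, with 0 passing and a median of 0.13; without wildtype pool 2, 4 were higher and the median was -0.04. Kif23, Kif18b, Kif2c, Kif4 and Kif22 had differences of 0.04 to 0.17, and Kif18a and Kif24 of -0.14 and -0.04. Kif14 (difference -0.38, SE 0.19) and Kif15 (-0.30, SE 0.32) had the lowest values. Both were dim, with deposited intensities of 6.5 to 26.6 and 21.2 to 88.0, and were the 2 core genes with means below the median of all probe sets.

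Centromere proteins, which carry the kinetochore, had 13 of 20 genes higher and 7 lower, with 0 passing and a median of 0.09, beside 9 higher and a median of -0.02 without wildtype pool 2. Cenps was 8.81, 8.13 and 9.03 among wildtype pools and 9.11, 9.16 and 8.99 among knockdown pools (difference 0.43, SE 0.23, limma adjusted p = 0.762). Here 2 knockdown pools were above every wildtype pool and wildtype pool 2 was far below; without it the difference was 0.16. Cenpk, of the inner kinetochore, was 8.57, 8.44 and 8.68 against 8.63, 9.16 and 9.03 (difference 0.38, SE 0.18, limma adjusted p = 0.721). Its 2 dimmer probe sets had differences of -0.09 and 0.04, and the mean of the 3 gave 0.11. Cenpa, the histone H3 variant that marks the centromere, was 10.52, 9.81 and 10.61 against 10.12, 10.34 and 10.16 (difference -0.11, SE 0.23), with the knockdown pools inside the wildtype range. The kinetochore motor gene Cenpe and the large kinetochore protein gene Cenpf differed by 0.11 (SE 0.26) and 0.09 (SE 0.17). At the lower end were Cenpv (-0.17, SE 0.26) and Cenpb, which binds centromeric repeats (-0.12, SE 0.15).

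The NIMA-related kinases were higher in 3 and lower in 6 of 9 cases, with a median of -0.10, and in 5 and 4 without wildtype pool 2, with a median of 0.06. Nek2, the family member that separates centrosomes, was 8.99, 8.66 and 9.22 among wildtype pools and 8.53, 8.76 and 8.72 among knockdown pools (difference -0.29, SE 0.18, limma adjusted p = 0.788; -0.43 without wildtype pool 2). Its 4 probe sets ran from -0.29 to 0.01, and their mean gave -0.11. Nek7, which acts at the spindle and in the NLRP3 inflammasome, was 10.09, 9.82 and 9.61 against 9.58, 9.65 and 9.53 (difference -0.25, SE 0.16), and its 3 probe sets were all lower, down to -0.48. The related kinases Nek6 and Nek9 had differences of 0.23 (SE 0.19, and 0.36 without wildtype pool 2) and 0.13 (SE 0.14), and Nek4 of 0.15 (SE 0.15). The 3 probe sets of Nek6 were all higher, from 0.09 to 0.88.

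Cilia and transport kinesins, here every kinesin outside the mitotic list, also hold Kif2a, a microtubule depolymerase gene. They were split evenly, with 12 of 25 higher, 13 lower and a median of -0.01, close to that of all genes. With the values as deposited, 9 of them were higher, and without wildtype pool 2, 15. Kif17, a motor of the kinesin-2 family, was 8.14, 8.14 and 8.53 among wildtype pools and 8.80, 8.47 and 8.88 among knockdown pools (difference 0.45, SE 0.18, limma p = 0.039, adjusted p = 0.683, exact permutation p = 0.2). Knockdown pool 2 lay below wildtype pool 3, so the groups overlapped. Kif3a, a subunit of the kinesin-2 motor of cilia, was 7.74, 7.98 and 8.05 against 8.19, 8.28 and 8.21, without overlap (difference 0.30, SE 0.14, limma adjusted p = 0.73). All 3 probe sets of Kif17 and all 4 of Kif3a were higher in the knockdown pools. With wildtype pool 2 left out, Kif17 differed by 0.38 and Kif3a by 0.33. Kif3b, the partner of Kif3a, differed by -0.06 (SE 0.15), and Kif5b, the conventional kinesin heavy chain, by -0.07 (SE 0.24). The lowest were Kif7, a ciliary kinesin of hedgehog signalling (-0.43, SE 0.23, and -0.25 without wildtype pool 2; deposited intensities 12.2 to 46.3), and, at higher signal, the microtubule depolymerase gene Kif2a (-0.33, SE 0.18), whose 5 probe sets ran from -1.04 to 0.27.

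Probe sets of a gene often disagreed. Of the 54 members with over 1 probe set, 25 had all of them on the same side of 0 and 29 had them on both sides. The same count over all genes was not made, so whether these members differ from other genes in this was not tested. Of the 200 probe sets, 117 were higher in the knockdown pools, 13 had an unadjusted p under 0.05 and 0 passed after adjustment. Over all 44991 probe sets, 51.7% were higher and 7.11% had such a p.

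A list of 60 other mitotic genes, 58 of them measured, was also low in wildtype pool 2. In it 43 were higher in the knockdown pools and 15 lower, beside 53.4% of all genes higher, with a median of 0.12. Of these, 5 had an unadjusted p under 0.05, all higher, beside 7.63% of all genes (4.1% higher), and 0 passed after adjustment (smallest adjusted p 0.486). Mad1l1, which anchors the checkpoint at kinetochores, was 6.96, 6.41 and 6.58 among wildtype pools and 7.50, 7.31 and 7.45 among knockdown pools, without overlap (difference 0.77, SE 0.18, limma p = 0.00244, exact permutation p = 0.1). The mean of all its probe sets gave 0.17. Oip5, needed to load Cenpa, was 7.19, 7.08 and 7.29 against 7.46, 7.91 and 8.07, also without overlap (difference 0.63, SE 0.19). The 3 others, named after their values were seen, were the outer kinetochore genes Ndc80 (0.55, SE 0.17), Zwint (0.50, SE 0.16) and Knl1 (0.75, SE 0.26). The groups did not overlap for 10 of the 58, all higher in the knockdown pools, beside 8.42% of all genes higher and 5.39% lower. The lowest p among genes with lower values belonged to the mitotic entry factor gene Bora (-0.21, SE 0.20) and the condensin gene Smc2 (-0.23, SE 0.24). Wildtype pool 2 was lowest for 39 of the 58 (67.2%). Without it 28 of the 58 were higher, beside 14 of the 44 core genes, and the median of the 58 was -0.01. Of the 58, 4 then had an unadjusted p under 0.05, all higher, beside 9.85% of all genes.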

How the data were processed

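Per the labels' protocols, total RNA of sorted bone marrow HSC was extracted with a column kit, put through 2 rounds of T7-based amplification and hybridised in 1 channel. The authors deposited processed intensity values per probe set on a linear scale; their software, background correction and scaling were not given in the sources used here. Such amplification is known to favour the 3' ends of transcripts; its part in differences between probe sets of a gene was not tested.

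Values under 1 were set to 1, log2(value + 16) was taken, and arrays were quantile normalised because their medians on that scale spread by 0.143, above a limit of 0.1. Folds of weak genes are understated on this scale. Every probe set was tested with limma 3.58.1 in R 4.3.3 (lmFit, eBayes, two-sided, Benjamini-Hochberg over 44991 probe sets, threshold 0.05). Exact permutation tests were two-sided. Symbols came from the platform annotation: 34921 probe sets had 1, 930 several and 9140 none. The test was checked on simulated data with 100 planted 2-fold and 100 planted 4-fold changes. It recovered 52% of the 2-fold and 99% of the 4-fold changes, and called 4 unplanted probe sets. Precision is limited by 3 arrays per group.

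The members and lists were chosen with earlier results of these data known. Genes named were Mki67, Top2a, Cdk1, Aurka, Aurkb, Plk1, Bub1 and Birc5, in each role up to 2 members of smallest p per direction, and members whose groups did not overlap, if brighter than the median probe set; further members are given beside them. Marker lists of megakaryocyte, B lymphoid, T lymphoid, and mast and eosinophil genes were measured too: knockdown minus wildtype, their means differed by -1.43, -0.55, 0.25 and -0.58. The last mean joins opposite signs: Cpa3, Mcpt8 and Ms4a2 differed by 2.05, 1.71 and 0.10, and Epx and Prg2 by -3.69 and -3.06. Alternatives covered normalisation, pseudocounts of 1 and 64, a filter at the 40th percentile, a trended prior, means over probe sets, the replicate number as a block, and leaving out each array. Figures used Python 3.11.15 and matplotlib 3.10.9.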

Additional observations from a re-analysis of the deposited data

How the results depend on the processing

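No member passed the adjusted threshold under any of the 14 alternatives (limma, Benjamini-Hochberg). The 3 members at an unadjusted p under 0.05 became 1 with values as deposited (beside 7.35% of all genes) and 1 with a pseudocount of 1 (6.54%). They became 5 with a pseudocount of 64 (9.11%) and 6 with the mean of all probe sets of a gene (8.39%). With an array left out there were 2 to 4 (5.33% to 9.85% of all genes), and Plk3 was among them under every setting. The 5 members without overlap became 8 with arrays centred on their medians and 9 with the mean of probe sets. With an array left out they were 8 to 19, where fewer arrays overlap less often. The share of all genes without overlap was not computed for these settings, so these counts have no background beside them. Spi1 kept its direction in each (-2.08 to -1.23). Of 39 named genes, 24 kept 1 direction throughout. With the mean of probe sets the difference turned for Aurka (-0.0145), Cenpb (0.0108), Cks1b (0.0054), Cks2 (0.0454), Kif20b (-0.0541) and Smc2 (0.12), with median centring for Bub3 (0.0506), and with deposited values for Ube2c (-0.0407); the cause was not tested.

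Leaving out an array in turn gave ranges across 0 for Aurka (-0.13 to 0.39), Aurkb (-0.0177 to 0.37), Birc5 (-0.24 to 0.0289), Bub1 (-0.35 to 0.10), Bub3 (-0.11 to 0.0144), Cdc20 (-0.049 to 0.22), Cenpv (-0.40 to 0.0454), Cks2 (-0.21 to 0.0342), Kif15 (-0.51 to 0.0038), Plk1 (-0.11 to 0.44), Smc2 (-0.42 to 0.0367) and Ube2c (-0.42 to 0.27). The median of the core genes ran from -0.05 to 0.18 and that of all members from -0.02 to 0.08, lowest without wildtype pool 2. Arrays of the same replicate number deviated with correlations of 0.178, 0.061 and -0.039, beside -0.198 to 0.154 for different numbers. With 3 pools per group, such correlations cannot show whether the numbers pair the pools. With the replicate number as a block, 2 members had an unadjusted p under 0.05, beside 7.65% of all genes, and 0 passed. The smallest p of an exact permutation with 3 arrays against 3 is 0.1.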

Other observations

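Knockdown pool 1 was the highest of the 6 arrays for 13 of the 44 core mitotic genes (29.5%) and the lowest for 10 (22.7%), beside 23.6% and 18.4% of all genes, so these shares were near the background. Highest there were, among others, Aurka, Aurkb, Ccnb2, Cdk1, Bub1b, Kif11 and Tpx2, and lowest were, among others, Birc5, Bub1, Cks1b, Cks2, Kif18a, Nek2 and Nusap1. Probe sets of the same gene could disagree: Cks2 was 11.48 in knockdown pool 1 on its brighter probe set, below the other 5 arrays at 11.63 to 12.02, but 11.34 on the other, inside the range of 10.73 to 11.38 of the other 5. By contrast, knockdown pool 2 and wildtype pool 3 were lowest for 0 of the 44, beside 12.3% and 15.5% of all genes. Wildtype pool 3 was highest for 17 of the 44 (38.6%), beside 15.3% of all genes. These counts were made after the values were seen, and no explanation of them was tested.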
